A study of Sus scrofa with 3 samples.

Results

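The genes described here are the peroxisome proliferator-activated receptors (PPARs), their coactivator and a set of classic target genes in pig liver. The rule took the features whose name equals PPARA, PPARD, PPARG, PPARGC1A, RXRA, PDK4, ANGPTL4, FGF21, CYP4A21 or CYP4A24. Of these 10 names, 8 were found as written. PPARGC1A was found under PPARGC-1, which the RefSeq gene table gives as an older name of the gene, and it is called PPARGC1A below. RXRA was not analysed here. The 9 genes stand among 22945 mRNA features. All 9 had an FPKM of 1 or more in every library, so none was lost to that minimum. FPKM here is a fragment count set relative to exon length and to a divisor for each library, which is described below.

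All animals were male Chinese Wuzhishan miniature pigs labelled as 6 to 7 months old. The study's methods give this as the age at which they were obtained, before 7 weeks of acclimation and 12 weeks on the diet rich in fat and cholesterol (HFC) that all of them ate. They were sham-operated intact males (IM), castrated males (CM), or castrated males given 10 mg/kg testosterone propionate in corn oil each week (CMT). Total RNA of the livers was pooled in equal amounts within a group, from 3 pigs by the labels and with 6 pigs per group in the methods, and each pool was sequenced as 1 library. No group on a normal diet was analysed here, so nothing below compares diets. With 1 library per group there was no replicate spread and no test between groups, and the variation between pigs is not known here.

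PPARs are nuclear receptors that bind fatty acids and their derivatives and act on DNA as a pair with a retinoid X receptor. PPARA is the main form in hepatocytes and drives fatty acid oxidation and the response to fasting. PPARD is found in most tissues and also favours fatty acid use, whereas PPARG directs fat storage and adipocyte differentiation and is normally scarce in liver. PPARGC1A (PGC-1alpha) is a coactivator of these receptors and of other factors, and it is induced in liver during fasting. The comparison of receptors with targets asks whether the transcripts that PPARs are known to induce followed the transcripts of the receptors themselves.

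From the deposited FPKM values, read numbers could be recovered for 7 of the 9 genes, and overall for 23090 of 24277 features with a value above 0. The recovered reads summed to 32197628, 36126730 and 25419901 (IM, CM, CMT). Intervals below are 95% exact binomial or Poisson intervals on these reads. They cover counting error only, not the variation between pools of pigs, and they are too narrow if mates of a pair were counted separately. The values of CYP4A21 and CYP4A24 were not whole multiples of a common step, so they carry no interval. They stood for 4681 to 16618 reads per kilobase. In these bulk samples, fewer cells of a type and less RNA per cell cannot be told apart.

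PPARA, the fatty acid sensor of the hepatocyte, was the most abundant PPAR transcript and differed little between the libraries. It had an FPKM of 318, 264 and 271 (IM, CM, CMT), from 1125, 1272 and 780 reads. The CM to IM ratio was 0.830 (0.765 to 0.900) and the CMT to CM ratio was 1.03 (0.939 to 1.13). Both lay within 1.5-fold. The lower value in CM depended on the scaling of the libraries, since the CM to IM ratio was 1.01 (0.929 to 1.09) when the values were scaled to the recovered reads.

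PPARD had its lowest value in CM. Its FPKM was 187, 86.0 and 155 (IM, CM, CMT), from 1623, 1016 and 1094 reads. CM was 2.18-fold below IM (ratio 0.459, 0.424 to 0.497), and CMT was 1.81-fold above CM (1.66 to 1.97). CMT reached 0.829 of the IM value (0.767 to 0.896). Among the 15613 mRNA features that reached an FPKM of 1 everywhere, 3.77% had a lower CM to IM ratio.

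PPARG went the other way, at a far lower level. It had an FPKM of 9.22, 19.7 and 9.73 (IM, CM, CMT), which rested on 21, 61 and 18 reads. The CM to IM ratio was 2.13 with a wide interval of 1.28 to 3.69, and the CMT to CM ratio was 0.495 (0.275 to 0.848). IM and CMT could not be told apart by counting error, at a ratio of 1.05 (0.530 to 2.08). In each library 43.5% to 51.3% of mRNA features had a lower FPKM than PPARG, against 88.9% to 90.4% for PPARA and 75.6% to 85.7% for PPARD.

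PPARGC1A was at least 1.5-fold higher in IM than in either other library. The coactivator had an FPKM of 152, 60.8 and 55.6 (IM, CM, CMT), from 464, 253 and 138 reads. CM was 2.50-fold below IM (ratio 0.400, 0.342 to 0.467), and CMT was 2.73-fold below IM (ratio 0.366, 0.300 to 0.443). Unlike PPARD, the transcript was not higher with testosterone, with a CMT to CM ratio of 0.914 (0.738 to 1.13).

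**Figure D1:**
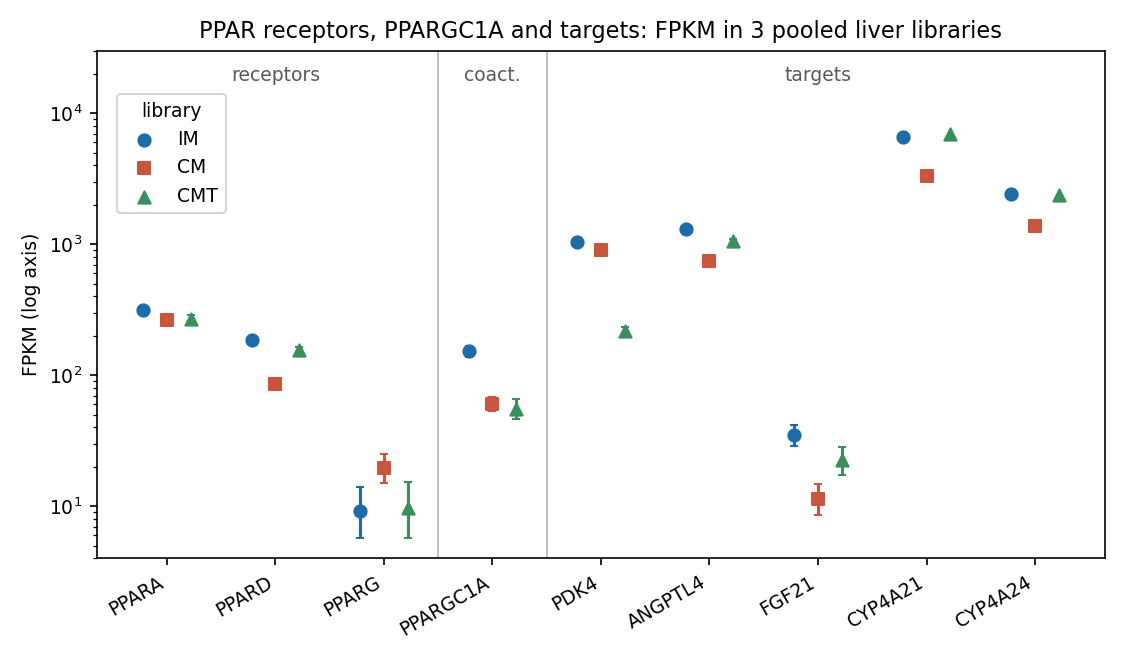
FPKM on a log axis of the 9 genes in the IM, CM and CMT libraries, grouped as receptors, coactivator and targets. Each point is 1 pooled library and bars are 95% Poisson intervals on the recovered reads (none for CYP4A21 and CYP4A24). PPARA is nearly level at 264 to 318. PPARD, ANGPTL4, FGF21 and both CYP4A genes are lowest in CM, and PDK4 is at 216 in CMT.

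The CYP4A transcripts were the most abundant of the set and also had their lowest value in CM. CYP4A21, which hydroxylates bile acids on the way to hyocholic acid in the pig, had an FPKM of 6621, 3316 and 7002 (IM, CM, CMT). The CM value was 0.501 of that in IM, and CMT was 2.11-fold above CM. CYP4A24, a fatty acid omega-hydroxylase, had 2436, 1369 and 2396 (IM, CM, CMT). Here CM was 1.78-fold below IM and CMT was 1.75-fold above CM. For both genes CMT lay close to IM, at ratios of 1.06 and 0.984. The RefSeq gene table gives CYP4A25 as another name of CYP4A24 and lists CYP4A21 and CYP4A24 as near neighbours with 3 genes between them. Genes of this family are close in sequence, and how the authors assigned reads shared between them is not given in the sources used here, so the split between the pair is uncertain. The CYP4A21 to CYP4A24 ratio was 2.72, 2.42 and 2.92 (IM, CM, CMT).

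ANGPTL4 encodes a secreted inhibitor of lipoprotein lipase. Its FPKM was 1318, 752 and 1059 (IM, CM, CMT), from 3026, 2352 and 1976 reads. CM was 1.75-fold below IM (ratio 0.570, 0.540 to 0.602). The CMT to CM ratio of 1.41 had an interval above 1 but was short of 1.5-fold, and CMT was at 0.803 of IM (0.759 to 0.851).

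FGF21, a hormone that liver secretes in fasting and other nutrient stress, was the lowest of the targets and had the largest CM to IM difference of the 9 genes. It had an FPKM of 34.8, 11.4 and 22.5 (IM, CM, CMT), from 126, 56 and 66 reads. CM was 3.07-fold below IM (ratio 0.326, 0.234 to 0.450). This interval overlapped those of PPARGC1A (0.342 to 0.467) and PPARD (0.424 to 0.497), so the rank of FGF21 is not settled within counting error. CMT was 1.98-fold above CM (1.36 to 2.87) and 1.55-fold below IM (ratio 0.644, 0.471 to 0.875), between the other libraries.

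PDK4 did not follow the other targets. The kinase, which switches off pyruvate dehydrogenase and so spares glucose when fatty acids are burned, had an FPKM of 1046, 905 and 216 (IM, CM, CMT), from 4659, 5489 and 782 reads. IM and CM were close, with a CM to IM ratio of 0.865 (0.831 to 0.899). CMT was 4.19-fold below CM (ratio 0.239, 0.221 to 0.257) and 4.84-fold below IM (ratio 0.207, 0.191 to 0.223). Only 0.359% of the 15613 features had a lower CMT to IM ratio. PDK4 was at 3.29 times PPARA in IM and 3.43 times in CM, and at 0.797 times in CMT (0.721 to 0.882). The small CM to IM difference changed its direction with the scaling, to a ratio of 1.05 (1.01 to 1.09) on recovered reads, while the low CMT value did not.

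**Figure D2:**
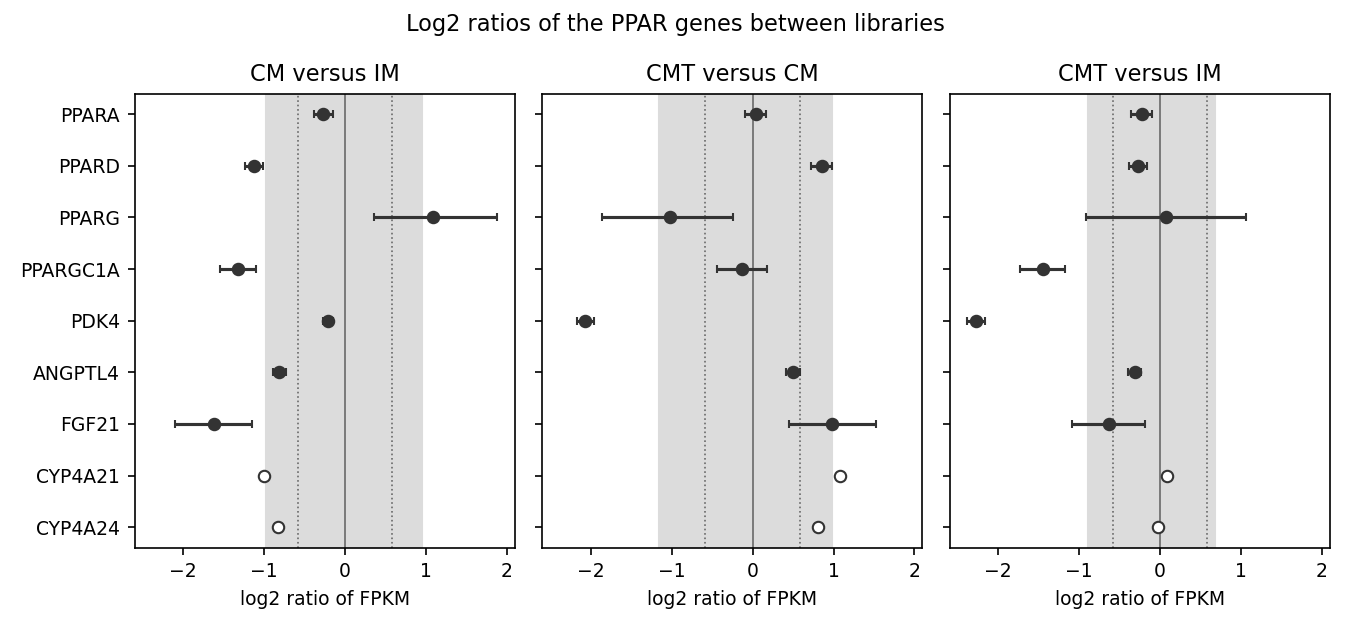
Log2 ratios of FPKM for each pair of libraries, 1 panel per pair. Filled points carry 95% exact binomial intervals (counting error only), open points have none, dotted lines mark 1.5-fold and the grey band spans the 5th to 95th percentile of 15613 mRNA features. PPARD, PPARGC1A, FGF21 and CYP4A21 lie below the band in CM versus IM, and PDK4 and PPARGC1A lie below it in CMT versus IM.

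Counted by the study's fold threshold, 7 of the 9 genes were 1.5-fold or more apart in CM and IM, where 23.2% of the 15613 mRNA features were. PPARD, PPARGC1A and 4 of 5 targets were lower in CM, 6 genes in all against a background of 12.1%, and PPARG was higher (background 11.1%). Between CMT and CM, 6 of 9 differed against 25.7% of all features. PPARD, FGF21, CYP4A21 and CYP4A24 were higher in CMT (background 12.1%), and PPARG and PDK4 were lower (background 13.5%). Between CMT and IM, PPARGC1A, PDK4 and FGF21 were past 1.5-fold, against 16.8% of all features. All 3 were lower in CMT (background 10.1%) and no gene was higher (background 6.67%). Across the 9 genes the median log2 ratio was -0.83 in CM versus IM, 0.49 in CMT versus CM and -0.27 in CMT versus IM. All tested features had medians of -0.020, 0.013 and -0.0072. CM versus IM and CMT versus CM share the CM library, so a low CM value counts in both. PPARD, FGF21, CYP4A21 and CYP4A24 were 1.5-fold or more below both other libraries in CM, a pattern met by 7.12% of all features. PPARG was the 1 gene at least 1.5-fold higher in CM than in both (6.87% of all features). The genes were chosen with earlier results of these data known, so these shares are a description.

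Directions across all features depended on the scaling of the libraries, because the divisor used for each library, 2.51 for IM, 3.42 for CM and 2.04 for CMT, was not proportional to its reads. For CM versus IM, 1737 features were higher and 1884 lower as deposited, 3432 and 1003 after scaling to the recovered reads, and 3239 and 1073 after scaling to equal column sums. For CMT versus CM the numbers were 1896 and 2110 as deposited, 1065 and 3497 on recovered reads, 1051 and 3572 on column sums, and 1423 and 2741 on the upper quartile. Scaling to the recovered reads moved each log2 ratio by 0.28 (CM versus IM), -0.24 (CMT versus CM) or 0.042 (CMT versus IM). PPARD then had ratios of 0.558 (0.515 to 0.604) for CM to IM and 1.53 (1.40 to 1.67) for CMT to CM, both still past 1.5-fold. ANGPTL4 and CYP4A24 no longer reached 1.5-fold in CM versus IM, at ratios of 0.693 and 0.682. CYP4A24 also came short in CMT versus CM, at 1.48. The remaining genes that were past 1.5-fold as deposited, PPARG, PPARGC1A, PDK4, FGF21 and CYP4A21 among them, stayed past it on recovered reads.

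**Figure D3:**
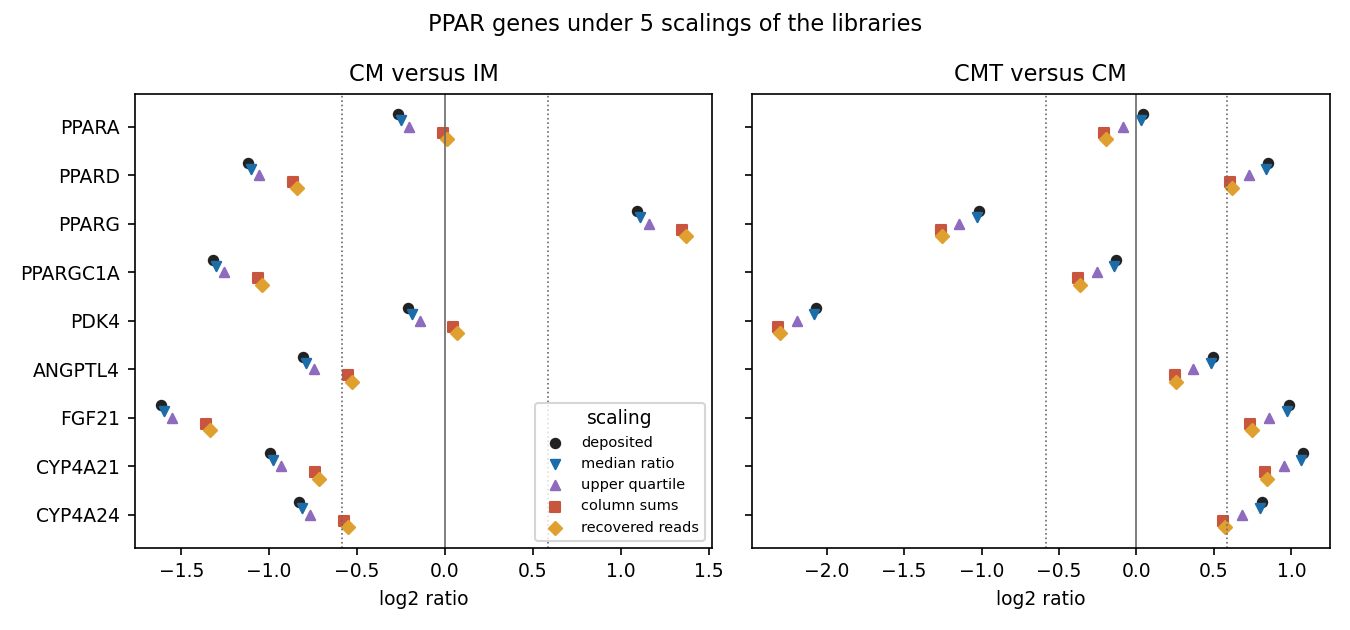
Log2 ratios of the 9 genes under 5 scalings of the libraries, with dotted lines at 1.5-fold. Column sums and recovered reads shift every gene to the right in CM versus IM and to the left in CMT versus CM. PPARA and PDK4 then sit near 0 in CM versus IM, while PPARD, PPARGC1A, FGF21 and CYP4A21 stay beyond the line.

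Ratios between genes of the same library are free of the scaling. PPARA exceeded PPARD 1.70-fold in IM (1.57 to 1.83), 3.07-fold in CM (2.82 to 3.33) and 1.75-fold in CMT (1.59 to 1.92). PPARD exceeded PPARG 20.3-fold in IM (13.2 to 32.9) and 4.37-fold in CM (3.37 to 5.76), and the value for CMT was 16.0. The order PPARA, PPARD, PPARG therefore held in each library, and the receptors stood apart from their neighbours beyond counting error, while the distances between them differed in CM.

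Relative to PPARA, 4 of the 5 targets had their lowest value in CM. The same 4 had their lowest FPKM in CM, and PPARA differed little between the libraries, so these ratios largely repeat the FPKM values. Of all tested features, 27.3% had a lower CM to IM ratio than PPARA, and 47.7% had a higher CMT to CM ratio. The share that met both conditions was not computed. CYP4A21 stood at 20.8 times PPARA in IM, 12.6 times in CM and 25.8 times in CMT. For CYP4A24 the multiples were 7.67, 5.19 and 8.84 (IM, CM, CMT). ANGPTL4 was at 4.15 times PPARA in IM (3.87 to 4.45), 2.85 in CM (2.66 to 3.06) and 3.91 in CMT (3.59 to 4.25), so that IM and CMT overlapped in their intervals and CM lay below both. FGF21 was at 0.110 of PPARA in IM (0.0905 to 0.132), 0.0431 in CM (0.0324 to 0.0563) and 0.0829 in CMT (0.0634 to 0.107). Relative to PPARD the picture differed, since ANGPTL4 was at 7.04 times PPARD in IM, 8.74 times in CM and 6.82 times in CMT. PDK4 was at 5.59 times PPARD in IM, 10.5 times in CM and 1.39 times in CMT. For FGF21 the share of PPARD was 0.186, 0.132 and 0.145 (IM, CM, CMT). ANGPTL4 and PDK4 were thus highest in CM when set against PPARD. This order follows largely from the low CM value of PPARD itself. Of all tested features, 96.2% had a higher CM to IM ratio than PPARD, and 93.6% had a lower CMT to CM ratio. Most features would therefore also be highest in CM relative to PPARD, so the order does not set these targets apart. The share that met both conditions was not computed.

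**Figure D4:**
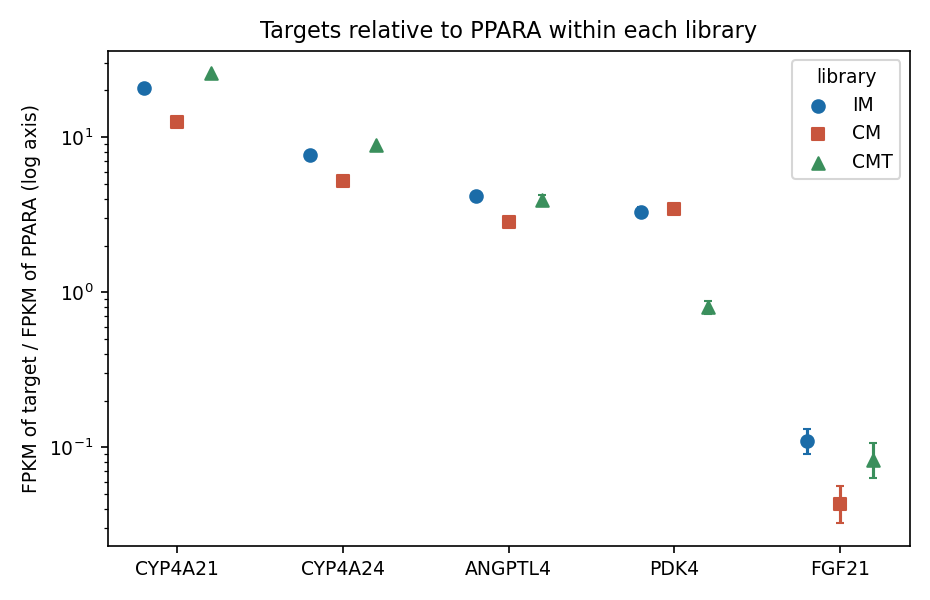
FPKM of each target divided by the FPKM of PPARA in the same library, on a log axis, with 95% exact binomial intervals where reads were recovered. CM is lowest for CYP4A21, CYP4A24, ANGPTL4 and FGF21, whereas PDK4 is nearly equal in IM and CM and is at 0.797 in CMT.

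Other genes of the pathway were taken from lists written from general gene function, with the 9 genes left out. Of the partners and cofactors, 15 of 20 were tested (FPKM of 1 or more in each library). In CM versus IM 13 of the 15 lay within 1.5-fold, where 23.2% of all features were past it, so the list was near the background. The median log2 ratio was -0.11, against -0.020 for all features. On recovered reads it was 0.17, where the median of all features was 0.26. RXRB, a retinoid X receptor, had an FPKM of 67.4, 72.0 and 62.2 (IM, CM, CMT). LPIN1, a phosphatidate phosphatase that also coactivates PPARA, was 238, 45.5 and 73.7 (IM, CM, CMT), and its CM to IM log2 ratio was -2.39. PPARGC1B, the relative of PPARGC1A, was higher in CM, at 4.42, 7.94 and 4.66 (IM, CM, CMT). The coactivator NCOA1 and the corepressor enzyme HDAC3, at the ends of the list's remaining range, had log2 ratios of 0.30 and -0.31.

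The list of other PPARA and PPARD targets held 35 tested genes of 43. In CM versus IM, 12 were lower by 1.5-fold or more, 3 were higher and 20 lay within 1.5-fold, where 12.1% of all features were lower and 11.1% higher. In CMT versus CM, 16 were higher and 3 were lower (12.1% and 13.5% of all features). The median log2 ratios were -0.51 and 0.51 as deposited, and -0.23 and 0.28 on recovered reads, where the medians of all features were 0.26 and -0.23. ACADL, a dehydrogenase of long-chain fatty acid oxidation, had an FPKM of 1646, 619 and 2479 (IM, CM, CMT). The lowest CM to IM ratio was that of TXNIP, an arrestin-like protein that limits glucose uptake, with 4952, 1577 and 2523 (IM, CM, CMT). The highest belonged to ACAA2, the thiolase of mitochondrial beta-oxidation, with 1004, 2982 and 99.4 (IM, CM, CMT). ACAA2 thus had its lowest value in CMT, as PDK4 did, with a CMT to CM log2 ratio of -4.91. The list's median for CMT versus IM was -0.043. Of the 35 genes 28 lay within 1.5-fold, where 16.8% of all features were past it. The list was not divided into genes that PPARs induce and genes that they repress, so its counts do not measure induction alone.

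PPARG and adipocyte-type targets did not share 1 direction. Of 12 tested genes of 18, 2 were higher and 5 lower in the CM library, against 11.1% and 12.1% of all features. The median log2 ratio was -0.23 as deposited, 0.054 on recovered reads and 0.031 on column sums. The medians of all features were -0.020, 0.26 and 0.24, and the list stayed below them under each of these scalings. PLIN4, a lipid droplet coat protein, had the same order of libraries as PPARG, with 11.2, 34.1 and 14.1 (IM, CM, CMT). SCD, the stearoyl-CoA desaturase, had 788, 1414 and 1506 (IM, CM, CMT). CEBPB, a transcription factor of early adipocyte differentiation and of the acute phase, was lower in CM, at 496, 190.4 and 277 (IM, CM, CMT). CIDEA, a lipid droplet protein, had 6.94, 2.55 and 2.67, from 16, 8 and 5 reads. Of the defining adipocyte markers, ADIPOQ and LEP were listed at 0 in all 3 libraries. The summed FPKM of the 6 adipocyte markers found was 107, 57.5 and 90.2 (IM, CM, CMT). CIDEC carried most of it, at 84.1, 40.1 and 77.2, and the rest summed to 22.7, 17.4 and 13.1. LIPE was highest in CM, at 4.12, 5.04 and 1.69. The part of adipocytes in the PPARG values was not tested.

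Among the other CYP4 enzymes and their electron donor, 4 of 11 genes were tested. CYP4F55 had the pattern of the CYP4A genes, with an FPKM of 818, 337 and 811 (IM, CM, CMT). CYP4F2 was 2424, 1409 and 1213 (IM, CM, CMT), so it was also low in CMT. CYP4V2 was highest in CM, at 825, 1343 and 604. POR, the reductase that serves these enzymes, lay within 1.5-fold, at 1020.4, 915 and 1046 (IM, CM, CMT).

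The other kinases and parts of the pyruvate dehydrogenase complex did not share the low CMT value of PDK4. All 10 tested genes lay within 1.5-fold between CMT and IM. Of all features, 16.8% were past it and 10.1% were lower in CMT, so the lack of a lower gene among 10 is near the background. PDK2, the most abundant of the other kinases in liver here, had an FPKM of 1029, 936 and 837 (IM, CM, CMT). The opposing phosphatase PDP2 was 76.6, 29.8 and 72.4 (IM, CM, CMT), and PDHB, a subunit of the first enzyme of the complex, was 1038, 635 and 1079. Both were lower in CM by over 1.5-fold, with ratios of 0.389 (0.301 to 0.501) and 0.612 (0.572 to 0.653). These 2 of the 10 tested genes stood against 12.1% of all features, and none was higher (11.1%). PDP1 and MPC2 were the highest of the list, with log2 ratios of 0.44 and 0.32.

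For the lipases and ANGPTL proteins, 8 of 10 genes were tested. Against 23.2% of all features, LIPG alone of the 8 was past 1.5-fold in CM versus IM. This endothelial lipase had an FPKM of 894, 110.3 and 594 (IM, CM, CMT), and its CM to IM ratio was 0.123 (0.114 to 0.134). PNPLA2, the adipose triglyceride lipase that releases fatty acids within the cell, had 405, 277 and 364 (IM, CM, CMT). LIPA, the lysosomal lipase, and GPIHBP1, the anchor of lipoprotein lipase, had CM to IM log2 ratios of 0.37 and 0.36, the latter from 24 and 42 reads.

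The FGF21 receptor genes spanned log2 ratios of -0.67 to 0.23 for CM versus IM, against -1.62 for the hormone. Of 5 tested genes of 7, FGFR1 alone was past 1.5-fold in CM versus IM, against 23.2% of all features. Its FPKM was 45.5, 28.5 and 37.5 (IM, CM, CMT). KLB, the coreceptor that FGF21 needs, had 12.8, 12.7 and 22.2 (IM, CM, CMT), so it was at least 1.5-fold higher in CMT than in both others. FGFR4, the main receptor of the family in hepatocytes, was 297, 263 and 262 (IM, CM, CMT), and FGFR3 and FGFR2 had CM to IM log2 ratios of 0.23 and 0.02.

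PDK4, ANGPTL4, FGF21 and PPARGC1A are also known to respond to fasting and, in part, to glucocorticoids, and most genes of that kind were lower in CM. Of 13 tested genes of 15 in this list, 11 were below IM in CM by 1.5-fold or more (12.1% of all features) and none was higher (11.1%), with a median log2 ratio of -1.11 against -0.020 for all features. In CMT versus CM 7 were higher (12.1% of all features) and none was lower (13.5%), with a median of 0.69. In CMT versus IM 6 were lower (10.1% of all features), with a median of -0.56. On recovered reads the median was -0.83 in CM versus IM and 0.45 in CMT versus CM. PDK4 differed from this list, with a CM to IM ratio of 0.865 (within 1.5-fold) and a CMT to CM ratio of 0.239. PPARGC1A was lower in CM, as most of the list was, but its CMT to CM ratio was 0.914. SDS, the serine dehydratase of gluconeogenesis from amino acids, had an FPKM of 12000.3, 424 and 4697 (IM, CM, CMT). FKBP5, a glucocorticoid-induced chaperone, was 427, 106 and 370.3 (IM, CM, CMT). NR3C1, the glucocorticoid receptor, lay within 1.5-fold, at 102, 113 and 100.2, as did CREB1 at 36.6, 46.3 and 43.5. The time since the last meal before the livers were taken is not in the labels, and the part of feeding state or glucocorticoids in the values of the PPAR genes was not tested.

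**Figure D5:**
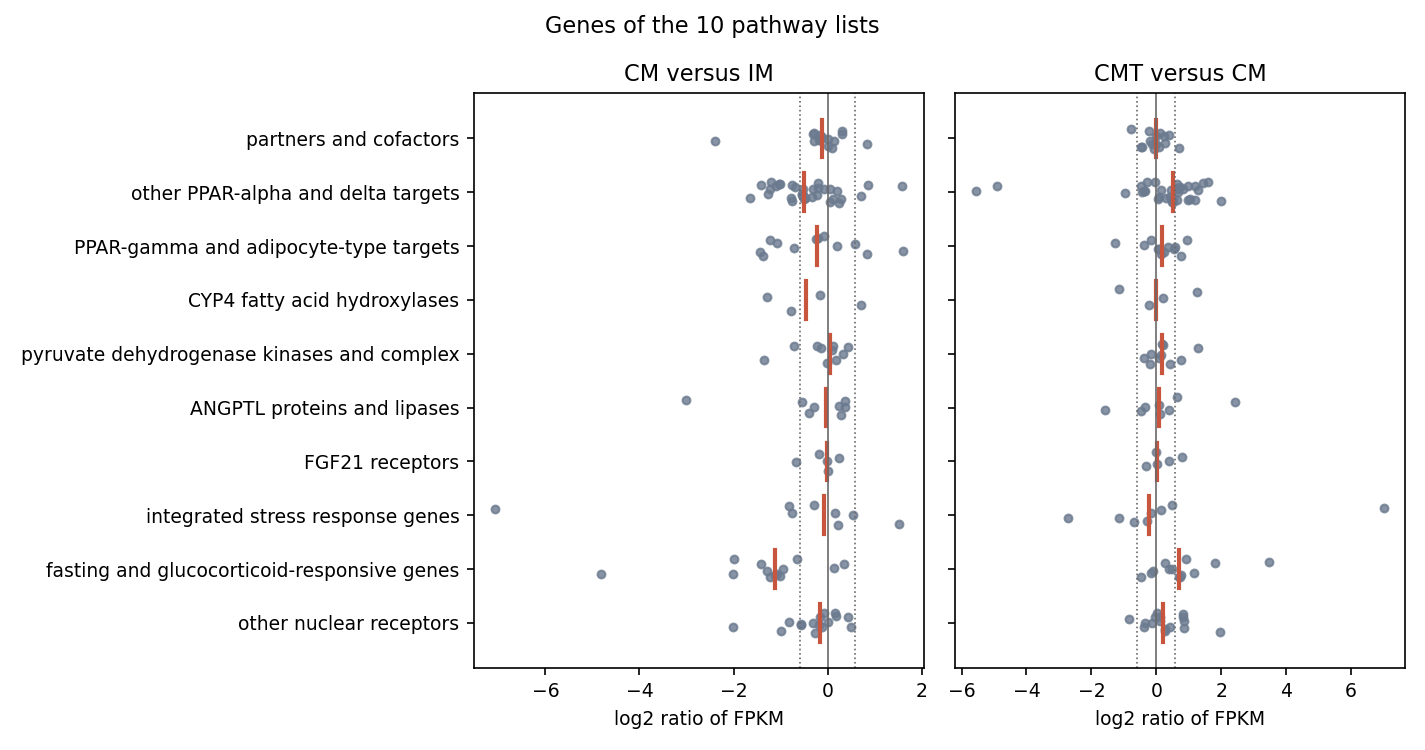
Log2 ratios of FPKM of the genes in 10 pathway lists in CM versus IM (left) and CMT versus CM (right; 1 point per gene, red bar the median, dotted lines 1.5-fold). The list of fasting and glucocorticoid-responsive genes has the lowest median in CM versus IM at -1.11. That of other PPARA and PPARD targets is at -0.51, and the cofactors centre near 0, as all features do.

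The genes nearest in pattern were sought among 12119 mRNA features whose FPKM reached 10 in each library, by the Euclidean distance between pairs of log2 ratios (CM to IM, CMT to CM) over the 3 libraries. The pattern of PPARA was common, with 337 features within a distance of 0.1, whereas PPARD had 16 and PPARG 13. The features nearest to PPARD were LOC102158932, AFM and PSEN2, at distances of 0.041 to 0.049. Those nearest to PPARG were LOC100517801, CCDC120 and KPNA2. For FGF21 the nearest were CREM, LOC102161817 and FOXA2, with 3 features within 0.1. CYP4A21 lay nearest to DAPK1, LOC100737604 and DIO1, and CYP4A24 nearest to HRG and LRRK1. The pattern of ANGPTL4 was closest to that of LOC100517759, CTH and CNRIP1, and that of PPARA to TMEM102, FAM172A and ASXL2. PPARGC1A had 2 features within 0.1, LOC102163201 and HDAC4, and MSX1 was next at 0.21. PDK4 was the most isolated, with no feature within 0.1 and 4 within 0.5, and RNF152, NNMT and FADS2 were nearest at 0.35 to 0.36. With 3 libraries such a distance says little more than the order and size of the values.

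The tissue label was checked against marker genes. Hepatocyte markers were at the highest levels in each library, with all 8 found and a summed FPKM of 1067160, 788257 and 832356 (IM, CM, CMT), most of it ALB. Of the 8, FGB alone was lower in CM by 1.5-fold or more, where 12.1% of all features were. Markers of T and NK cells summed to 462, 612 and 349 (IM, CM, CMT), those of macrophages to 12027, 11499 and 12648, and those of cholangiocytes to 40.0, 68.9 and 45.7. Of the 7 macrophage markers found, MARCO alone was lower in CM by over 1.5-fold (12.1% of all features), at 414, 82.8 and 317. Endothelial markers summed to 1079, 954 and 1004, and stellate cell and fibroblast markers to 1382, 1479 and 1236, in the same order. Of the 5 endothelial markers found, VWF alone was lower in CM by over 1.5-fold, at 25.5, 15.6 and 16.8 (IM, CM, CMT). All 7 T and NK cell markers had their lowest value in CMT, where PDK4 was also lowest, and their highest in CM, where PPARG was also highest. None of the 7 was 1.5-fold or more apart in CM and IM, where 23.2% of all features were. GZMB was at 10.3 and 10.8 and KLRB1 at 49.0 and 51.1 (IM, CM). The share of all features with the same order of libraries was not computed. Both cholangiocyte markers found were also highest in CM, by at least 1.5-fold against IM, where 11.1% of all features were higher. The part of these cell types in the values of PDK4 and PPARG was not tested.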

How the data were processed

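Liver RNA was sequenced as 1 pooled library for each of IM, CM and CMT. After FastQC the authors aligned 100-bp read pairs to Sscrofa10.2 by TopHat, and they deposited FPKM values for 34579 features, 22945 of them mRNA. The counting program and annotation are not given in the sources used here. In the deposited FPKM values, whole multiples of a step gave the library divisors, and the smallest length up to 10000 bases that made all 3 values whole gave the reads, for 95.1% of features above 0. Reads that share a factor in all libraries come out too low, and intervals are then too wide. The recovery and the intervals were tested on simulated Poisson counts that used the same divisors and the recovered lengths. Such a simulation cannot check the divisors, the counting of mates or the variation between pools.

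Genes were compared by the ratio of FPKM without pseudocount. A gene was counted where its FPKM reached 1 in each library and its ratio 1.5-fold. There were no p-values. All 9 PPAR genes are named, as are, from each of 10 pathway lists, the 2 highest and 2 lowest CM to IM ratios, and the 3 nearest genes by pattern, except a few items that are not reported here. A few further list genes (RXRB, PDK2, KLB, SESN2) and the markers were named after their values were seen. The members and lists were chosen with earlier results of these data known. The alternatives tried were no FPKM minimum or 10, a pseudocount of 1, 2-fold, other scalings and an interval that leaves out 1. Those added after seeing the data were leaving out PPARGC-1, halving the reads and applying the alternatives to the lists. No genome or sequence was used. Python 3.11.15, numpy 2.4.6, pandas 2.3.3, scipy 1.17.1 and matplotlib 3.10.9 were used.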

Additional observations from a re-analysis of the deposited data

How the results depend on the processing

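The share of all features past 2-fold was not computed, so the 2-fold counts below have no background. The number of PPAR genes past 1.5-fold depended most on the threshold. With 2-fold it was 4 in place of 7 for CM versus IM, 3 in place of 6 for CMT versus CM and 2 in place of 3 for CMT versus IM. When the recovered reads were halved, for both mates of a pair, and an interval that leaves out 1 was required, it was 3 for CMT versus CM. The genes lost were CYP4A21 and CYP4A24, which have no reads, and PPARG. Column sums and recovered reads gave 5, 5 and 3. Of the counts of PPAR genes under all alternatives, 30 stayed within 1.5 times the reported number and 3 did not. Of their log2 ratios, 99 stayed within the counting interval (for CYP4A21 and CYP4A24, within 0.05) and 36 did not, and no gene past 1.5-fold reversed. Of the list medians 98 moved by at most 0.1 and 52 by more. Over the genes of all lists together, 48, 48 and 24 of 125 were past 1.5-fold in the same order of comparisons, and 29, 22 and 10 at 2-fold. The 1.5-fold shares were 38.4%, 38.4% and 19.2%, against 23.2%, 25.7% and 16.8% of all features. No paired analysis was possible because each group had 1 library. Depth limits PPARG most, at 18 to 61 reads.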

Other observations

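Other nuclear receptors of the liver were measured beside the PPARs. Of 16 tested genes of 25, 3 were lower in CM by 1.5-fold or more and none was higher, against 12.1% and 11.1% of all features. The median log2 ratio was -0.17 as deposited, 0.11 on recovered reads and 0.086 on column sums. The medians of all features were -0.020, 0.26 and 0.24, and the list stayed below them under each of these scalings. RORA, a receptor of the clock and of lipid metabolism, had an FPKM of 125, 30.9 and 120 (IM, CM, CMT). NR1H4, the bile acid receptor FXR, was 760, 382 and 694 (IM, CM, CMT). ESR1, the estrogen receptor, had 15.8, 22.1 and 12.3 (IM, CM, CMT) from 11, 21 and 7 reads, and NR1D2 had a CM to IM log2 ratio of 0.42. PPARD thus had a CM to IM log2 ratio of -1.12 among receptors that ranged from -2.02 to 0.49.

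FGF21 is also known as a gene of the integrated stress response, whose genes did not share 1 direction. Of 8 tested genes of 9, 1 was higher and 3 were lower in CM than in IM, against 11.1% and 12.1% of all features. CHAC1, a glutathione-degrading enzyme, had an FPKM of 280.04, 2.07 and 271 (IM, CM, CMT), from 1190, 12 and 936 reads. TRIB3, a pseudokinase induced by the same pathway, was highest in CM, at 4.35, 12.4 and 1.89, from 34, 132 and 12 reads. CTH, an enzyme of cysteine synthesis, had 2046, 1152 and 1629, and DDIT3, a transcription factor of the response, had 50.9, 74.2 and 46.1. SESN2 was the third gene lower in CM, at 157, 92.4 and 41.3 (IM, CM, CMT), and was lowest in CMT. FGF21 was thus lower in CM than in IM beside CHAC1, CTH and SESN2 and unlike TRIB3. DDIT3 was within 1.5-fold, with a CM to IM ratio of 1.46.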
